A study of Mus musculus with 20 samples.

Results

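Nicotinic acetylcholine receptor subunits encoded outside the Chrna5-Chrna3-Chrnb4 cluster were examined in Trpv1 neurons of mouse dorsal root ganglia (DRG). The members are Chrna2, Chrna4, Chrna6, Chrna7, Chrna9, Chrna10, Chrnb2 and Chrnb3, which makes 8 of the 37620 genes listed in the expression table. They were matched by Ensembl identifier, and all 8 were found. Trpv1 neurons were sorted from lumbar (L4-5) and sacral (L6-S1) DRG, so that Trpv1 neurons of adjacent spinal levels, which differ in their share of pelvic visceral afferents, could be compared in both sexes.

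Cells came from adult mice of 6 to 8 weeks, 5 male and 5 female donors, all homozygous for the Trpv1tm2Bbm allele (Trpv1 PLAP-nLacZ), in which the Trpv1 locus drives placental alkaline phosphatase and a nuclear β-galactosidase. The lumbar and the sacral sample of a donor gave 1 library each, so that 20 libraries form 4 groups of 5 (male lumbar, male sacral, female lumbar and female sacral). No group was treated, and the reporter allele is shared by all of them. The brightest 15% of cells that had cleaved the β-galactosidase substrate DDAOG were collected, so weakly labelled Trpv1 neurons are missing from every group. Each donor label carries 2 animal numbers, and whether a label stands for pooled animals is not stated, so donors are named here M1 to M5 and F1 to F5 and each is counted once.

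Nicotinic receptors are pentameric cation channels opened by acetylcholine. The α subunits carry a pair of adjacent cysteines at the tip of the agonist-binding loop, and the β subunits lack it. α4 and β2 form the most common heteromeric receptor of the brain, α6 joins β2 and β3 on catecholaminergic and retinal neurons, α7 and α9 can form receptors of 1 subunit type, and α3 with β4 is the classical receptor of autonomic ganglia. In sensory neurons nicotinic receptors are known to modulate excitability and transmitter release.

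The codons around that cysteine pair are shown to mark which members encode it. Whether a member contributes to a binding site was not tested. Each line gives 30 bases of the coding strand read from the longest annotated coding sequence (mm9, GENCODE), with the cysteine codons in capitals.
Chrna2, chr14:66767898-66767927, plus strand, codons 224 and 225: agcaagaagtacgacTGCTGCgcggagatc
Chrna4, chr2:180763974-180764003, minus strand, codons 227 and 228: accaggaagtatgaaTGCTGTgccgagatc
Chrna6, chr8:28517642-28517671, minus strand, codons 222 and 223: gacatcaagtacaacTGCTGTgaagagatt
Chrna7, chr7:70251035-70251064, minus strand, codons 212 and 213: gagaagttctatgaaTGCTGCaaagagcca
Chrna9, chr5:66362329-66362358, plus strand, codons 219 and 220: gtcatctcctacggcTGCTGCtcggagcct
Chrna10, chr7:109261830-109261859, minus strand, codons 218 and 219: gtgctcacctacggcTGCTGCtccgagccc
Chrnb3, chr8:28504360-28504389, plus strand, the aligned stretch: aacagaagagaaggcttttactcctatccg
Each α subunit gene held 1 in-frame pair of adjacent cysteine codons in its whole coding sequence. Chrnb2 and Chrnb3 held 0, and the stretch of Chrnb3 that aligned with the pair of Chrna6 encodes other residues at codons 223 and 224.

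The members lie on 6 chromosomes in mm9. Chrna6 (chr8:28513686-28524416, minus strand) and Chrnb3 (chr8:28479183-28510201, plus strand) are neighbours. The others are Chrna2 (chr14:66759797-66771785), Chrna4 (chr2:180753085-180778251), Chrna7 (chr7:70243578-70357455), Chrna9 (chr5:66326160-66368565), Chrna10 (chr7:109259780-109265227) and Chrnb2 (chr3:89557370-89568554). None of the 8 overlaps another annotated gene on either strand.

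Libraries held 43997519 to 66612663 reads on genes (median 55970541), worked back from the deposited log2 RPKM values. RPKM is the number of reads scaled to gene length and library size, so levels of genes can be compared per length. The median gene had a log2 RPKM of 0.93 in each of the 20 libraries. The sorted cells carried Trpv1, the heat- and capsaicin-gated channel, at 3.14 to 4.71 log2 RPKM in lumbar and 4.10 to 5.14 in sacral libraries, and the peptide gene Calca at means of 9.98 and 9.82. All 10 pan-neuronal markers were upregulated in sacral DRG, with summed RPKM of 1491 to 2645 in lumbar and 2568 to 3465 in sacral libraries. Of 10 glial markers 9 passed the test between the levels (limma, adjusted p of at most 0.05) as higher in lumbar DRG. The other, Pmp22, was also higher there on average, at 9.64 against 9.44 log2 RPKM. Summed RPKM of the 10 was 2043 to 4061 in lumbar and 1260 to 2122 in sacral libraries, and none was at 0. Of all genes tested 30.3% passed as higher in sacral and 15.3% as higher in lumbar DRG. In such bulk libraries fewer cells of a type and less RNA per cell cannot be told apart.

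Of the 8 members, 5 (Chrna4, Chrna6, Chrna7, Chrnb2 and Chrnb3) had a value in every library and 3 were at or near 0. Chrna2, an α subunit of interneurons, had 1 read in the lumbar library of M3, 4 reads in the sacral library of M1 and 0 in the other 18. Chrna9, the α subunit of cochlear hair cells, had 2 reads in the sacral library of M3 and 0 in the other 19. A count of 0 allows up to 3 reads, which corresponds to 0.0126 to 0.0235 RPKM for Chrna2 and 0.0148 to 0.0274 RPKM for Chrna9 across libraries. This limit covers counting error only.

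Chrna10, the partner of α9, was between these extremes. It had 1, 9 and 27 reads in the lumbar libraries of M1, M4 and M5, 6 in that of F2, and 0 in the other 6. In sacral libraries it had 10 and 15 reads in M1 and M3 and 6, 2 and 29 in F2, F4 and F5, with 0 in the other 5. Reads were thus present in 4 of 10 lumbar and 5 of 10 sacral libraries, 43 against 62 in sum, and F2 and M1 were the only donors with reads at both levels. Chrna2, Chrna9 and Chrna10 were below the filter on low values, and no fold change is given for them. The ratio of Chrna9 to Chrna10 was not tested, since Chrna9 had a value in 1 library.

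The 5 expressed members differed in level, with Chrna6 highest and Chrna7 lowest per length. Averaged over a donor's lumbar and sacral libraries, Chrna6 was at 3.86 ± 0.29 log2 RPKM (SD, n = 10 donors), Chrnb3 at 3.33 ± 0.39, Chrnb2 at 2.17 ± 0.38, Chrna4 at 1.27 ± 0.60 and Chrna7 at 0.55 ± 0.41. Over both levels each neighbour in this order differed from the next. The order, and with it the sign of each difference, was taken from these same values. The p-values below are therefore no separate support for the order. Chrna6 exceeded Chrnb3 by 0.53 ± 0.29 (SD over donors), Chrnb3 exceeded Chrnb2 by 1.17 ± 0.37, and Chrnb2 exceeded Chrna4 by 0.89 ± 0.41, each in 10 of 10 donors (exact sign-flip permutation test, two-sided, p = 0.00195, the smallest that 10 donors allow; adjusted over the 4 neighbours 0.0026). Chrna4 exceeded Chrna7 by 0.73 ± 0.65 in 9 of 10 donors (exact permutation p = 0.00977). In lumbar libraries alone this last difference was 0.29 and did not pass (exact permutation p, adjusted, = 0.125).

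Between the levels, 3 of the 5 tested members were upregulated in sacral DRG, Chrnb2, Chrnb3 and Chrna6, and 0 in lumbar DRG (limma with donor as block, Benjamini-Hochberg adjusted p of at most 0.05). Fold changes are given as lumbar minus sacral, so that a negative value is a higher level in sacral DRG. The background of this comparison is wide: 45.6% of 16304 genes passed, 30.3% upregulated in sacral and 15.3% in lumbar DRG, and the median of all genes was -0.11 log2. Relative to that median the differences of the members were -0.86 for Chrnb2, -0.80 for Chrnb3, -0.53 for Chrna6, -0.36 for Chrna4 and 0.51 for Chrna7.

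**Figure D1:**
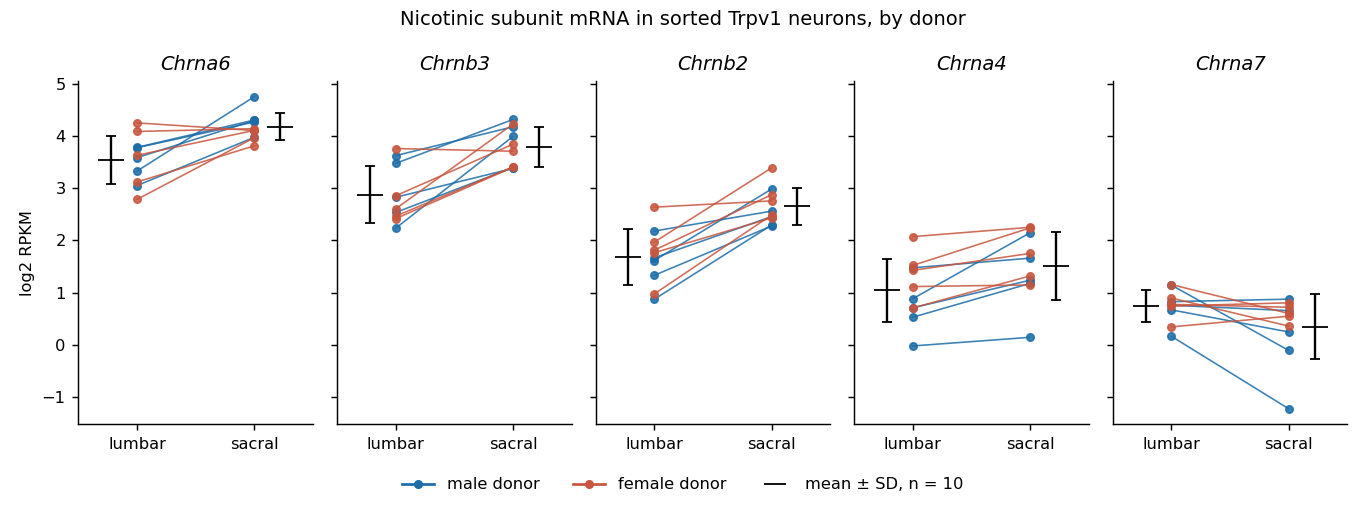
Each panel plots log2 RPKM of 1 subunit gene in the lumbar and the sacral library of each of 10 donors, joined by a line (blue, male; red, female), with black bars for mean ± SD. Lines of Chrnb2 and Chrna4 rise from lumbar to sacral in 10 of 10 donors, those of Chrna6 and Chrnb3 in 9 of 10, and those of Chrna7 in 3 of 10.

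Chrnb2 encodes the β2 subunit, the structural partner of α4 and α6. Its log2 RPKM in lumbar libraries was 2.18, 0.87, 1.67, 1.33 and 1.61 in M1 to M5 and 1.81, 2.64, 0.97, 1.76 and 1.97 in F1 to F5. In sacral libraries it was 2.56, 2.30, 2.46, 2.28 and 2.99 in the males and 2.88, 2.76, 2.49, 2.43 and 3.39 in the females. Every donor was higher at the sacral level, though the groups overlap because the lumbar library of F2 exceeds several sacral ones. The difference was -0.97 log2 (SE 0.17), a 1.96-fold higher level in sacral DRG (limma, adjusted p = 0.000106). Of all tested genes with a value in every library 14.6% were higher in sacral DRG in all 10 donors.

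Chrnb3 encodes β3, an accessory subunit that enters receptors with α6. In lumbar libraries its log2 RPKM was 3.63, 2.83, 3.48, 2.54 and 2.23 in M1 to M5 and 2.61, 3.76, 2.47, 2.42 and 2.86 in F1 to F5. In sacral libraries it was 4.18, 3.38, 4.32, 3.40 and 3.99 in the males and 4.23, 3.71, 3.41, 3.40 and 3.85 in the females. F2 was the donor without a higher sacral value, with 3.76 against 3.71. The difference of -0.91 log2 (SE 0.18) is a 1.87-fold higher level in sacral DRG (limma, adjusted p = 0.00036).

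Chrna6 encodes the α6 subunit. It was the highest of the members on the RPKM scale, with 916 to 3862 reads per library. Lumbar log2 RPKM was 3.78, 3.05, 3.78, 3.59 and 3.33 in M1 to M5 and 4.09, 4.25, 2.79, 3.12 and 3.63 in F1 to F5. Sacral log2 RPKM was 4.31, 3.98, 4.27, 4.30 and 4.76 in the males and 4.14, 4.11, 3.97, 3.82 and 4.11 in the females. The sacral values lie closer together (SD 0.26 against 0.47), and F2 was higher at the lumbar level. The difference was -0.63 log2 (SE 0.14), or 1.55-fold (limma, adjusted p = 0.00108).

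Chrna4 encodes α4. Lumbar log2 RPKM was 1.48, 0.71, 0.88, -0.02 and 0.53 in M1 to M5 and 1.43, 2.07, 1.12, 0.71 and 1.52 in F1 to F5. Sacral log2 RPKM was 1.66, 1.24, 2.15, 0.14 and 1.18 in the males and 1.75, 2.25, 1.15, 1.32 and 2.24 in the females. Every donor had the higher value at the sacral level, by 0.03 to 1.27 log2, but donors differed by more than that, with M4 lowest at both levels. The difference of -0.47 log2 (SE 0.21; interval of 2 SE -0.88 to -0.05) did not pass (limma, adjusted p = 0.0696). It passed with donor as a fixed block, which sets each donor against itself (limma, adjusted p = 0.00928), and without M4 (0.0306).

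Chrna7 encodes α7, the subunit of calcium-permeable receptors blocked by α-bungarotoxin. Lumbar log2 RPKM was 1.14, 0.16, 0.76, 0.83 and 0.67 in M1 to M5 and 0.74, 0.77, 0.90, 0.34 and 1.15 in F1 to F5. Sacral log2 RPKM was -0.11, -1.23, 0.65, 0.87 and 0.25 in the males and 0.80, 0.72, 0.36, 0.55 and 0.60 in the females. The higher value was lumbar in 7 of 10 donors, and the lowest of all 20 values, the sacral library of M2, rests on 112 reads. The difference of 0.40 log2 (SE 0.19; interval of 2 SE 0.03 to 0.77) did not pass (limma, adjusted p = 0.0844). It passed when libraries were scaled with TMM factors (0.51 log2, limma, adjusted p = 0.0276), with voom on the worked-back reads (0.0138) and without M4 (0.0482). Scaled to total reads it was 0.076 log2 (limma, adjusted p = 0.734), and the median of all genes was then -0.43.

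**Figure D2:**
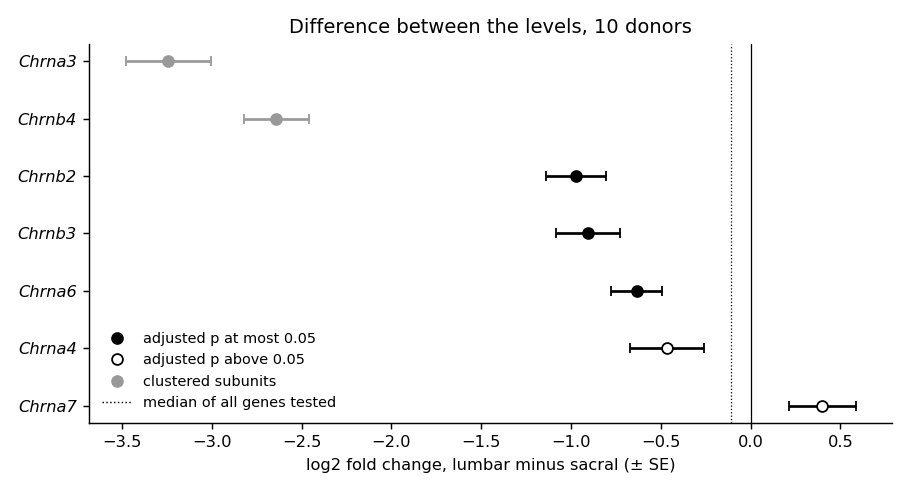
The log2 fold change, lumbar minus sacral, of the 5 expressed members and of Chrna3 and Chrnb4 is plotted with its SE over 10 donors. Filled symbols passed an adjusted p of 0.05, and the dotted line is the median of all genes tested, -0.11.

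The clustered subunits moved further in the same comparison. Chrna3 differed by -3.24 log2 (SE 0.24) and Chrnb4 by -2.64 (SE 0.18), against -0.97 for the largest difference among the members (limma, adjusted p = 1.4e-08 and 5.63e-09 for Chrna3 and Chrnb4). The difference between a clustered gene and a member was tested for the β subunits. The log2 ratio of Chrnb2 to Chrnb4 was -0.11 ± 0.61 (SD, n = 10) in lumbar and -1.78 ± 0.80 in sacral libraries. On average the mRNA of these β subunits was thus near equal in lumbar libraries (0.929) and at a ratio of 0.292 in sacral ones. Donors ran from -0.93 to 0.68 log2 in lumbar and from -3.00 to -0.65 in sacral libraries. Mean sacral log2 RPKM of Chrnb4 was 3.60 in males and 5.25 in females, and that of Chrnb2 was 2.52 and 2.79. The ratio fell from lumbar to sacral in 10 of 10 donors, by 1.67 ± 0.65 (exact sign-flip permutation p = 0.00195, the smallest possible; adjusted over 3 ratios 0.00586).

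Among the ratios of known partners, that of Chrna4 to Chrnb2 was higher in lumbar DRG, and that of Chrna6 to Chrnb3 did not pass. The log2 ratio of Chrna4 to Chrnb2 was -0.64 ± 0.45 in lumbar and -1.14 ± 0.54 in sacral libraries, higher in lumbar in 8 of 10 donors by 0.50 ± 0.57 (exact permutation p = 0.0215, adjusted 0.0322). It did not pass without M4, M5, F1, F3 or F5, nor when the libraries were not paired by donor (adjusted exact permutation p = 0.0546). The log2 ratio of Chrna6 to Chrnb3 was 0.66 ± 0.44 in lumbar and 0.39 ± 0.33 in sacral libraries, higher in lumbar in 8 of 10 donors by 0.27 ± 0.53 (exact permutation p = 0.105).

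As a share of the summed RPKM of all 16 nicotinic subunit genes, the 8 members made up 80.5% ± 4.1 (SD, n = 10) in lumbar and 54.7% ± 15.4 in sacral libraries. This share was higher in lumbar DRG in 10 of 10 donors, by 25.9 ± 12.8 percentage points. Chrna6 alone gave 35.8% ± 5.0 in lumbar and 23.5% ± 8.2 in sacral libraries. Chrnb3 gave 22.9% ± 4.9 and 17.8% ± 6.3, and Chrna7 gave 5.27% ± 1.32 and 1.69% ± 0.76. The summed RPKM of all 16 genes had a median of 31.1 in lumbar and 84.1 in sacral libraries, and Chrna3 and Chrnb4 together rose from means of 3.87% and 11.1% of it to 15.1% and 28.3%. Within sacral DRG the members gave 67.9% ± 7.4 in males and 41.5% ± 6.7 in females (n = 5 each). The shares were chosen after the data were seen and are a description.

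**Figure D3:**
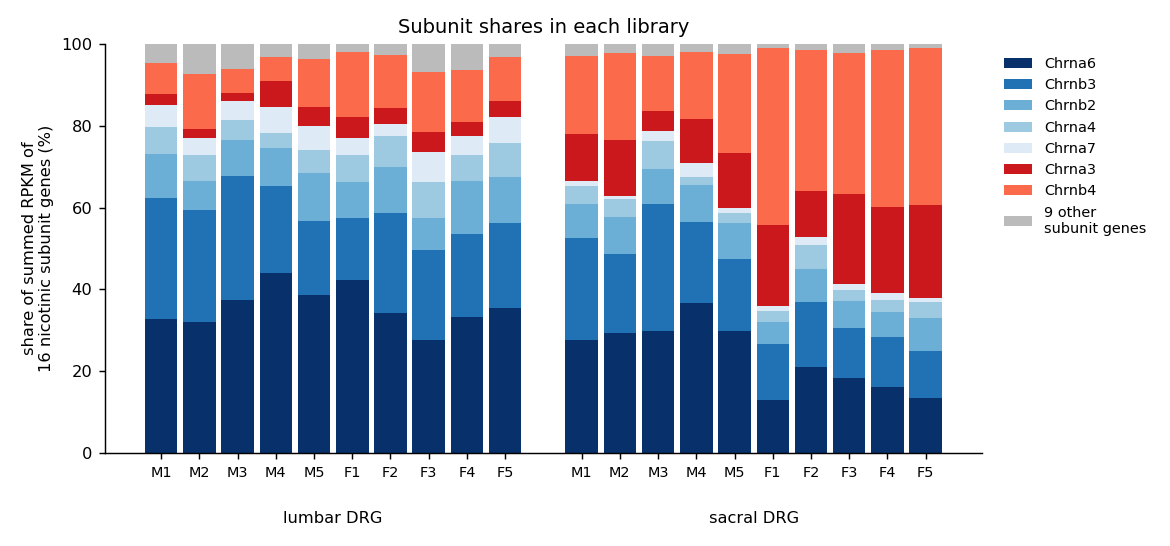
Stacked bars plot the share of summed RPKM (%) of the 16 nicotinic subunit genes in each of 20 libraries, with the members in blue and Chrna3 and Chrnb4 in red. All members together average 80.5% in lumbar and 54.7% in sacral libraries, and the blue part is smallest in the sacral libraries of female donors.

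Because neuronal markers also differed between the levels, each member was set against the mean log2 RPKM of the 10 pan-neuronal markers. That mean was 6.80 ± 0.29 (SD, n = 10) in lumbar and 7.49 ± 0.15 in sacral libraries, and was higher at the sacral level in 10 of 10 donors. It differed by -0.69 log2, lumbar minus sacral, against -0.11 for the median of all genes. The median gene is therefore also higher in lumbar DRG relative to these markers. How many of all genes differ on this ratio was not counted. On this ratio Chrna7 was higher in lumbar DRG, and the 3 members that were upregulated in sacral DRG per RPKM no longer passed. For Chrna7 the log2 ratio was -6.05 ± 0.27 in lumbar and -7.14 ± 0.56 in sacral libraries, higher in lumbar in 10 of 10 donors by 1.09 ± 0.60 (exact sign-flip permutation p = 0.00195, the smallest possible; adjusted over the 5 ratios 0.00977). The nearest libraries of the levels were almost equal, the lumbar one of F2 at -6.433 and the sacral one of M4 at -6.434. Per RPKM the difference of Chrna7 was 0.40 log2 and did not pass (limma, adjusted p = 0.0844). The pan-neuronal mean itself ran from 6.33 to 7.21 in lumbar and from 7.21 to 7.70 in sacral libraries. The share of all genes higher in lumbar DRG in all 10 donors on this ratio was not counted. The difference of Chrna7 passed under each of the 14 alternatives run for this ratio.

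The ratio of Chrnb2 to the pan-neuronal markers was lower in lumbar DRG by 0.28 ± 0.34 (-5.12 ± 0.28 against -4.83 ± 0.23) in 8 of 10 donors, with an exact permutation p of 0.0293 that became 0.0732 after adjustment. It passed against the 6 Trpv1 neuron markers (-0.44, adjusted exact permutation p = 0.00488) and without F2 (-0.34, 0.0293), but against Trpv1 alone the difference was -0.012 (0.941). The ratio of Chrnb3 differed by -0.22 ± 0.43 (exact permutation p = 0.152), that of Chrna4 by 0.22 ± 0.40 (p = 0.119) and that of Chrna6 by 0.05 ± 0.30 (p = 0.592). Against the Trpv1 neuron markers Chrnb3 passed (-0.37, adjusted exact permutation p = 0.00977) while against Trpv1 alone it was at 0.052 (0.745), and without M3 Chrna4 passed (0.31, 0.0293). By the same ratio Chrna3 still differed by -2.55 ± 0.93 and Chrnb4 by -1.95 ± 0.67, each lower in lumbar in 10 of 10 donors.

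**Figure D4:**
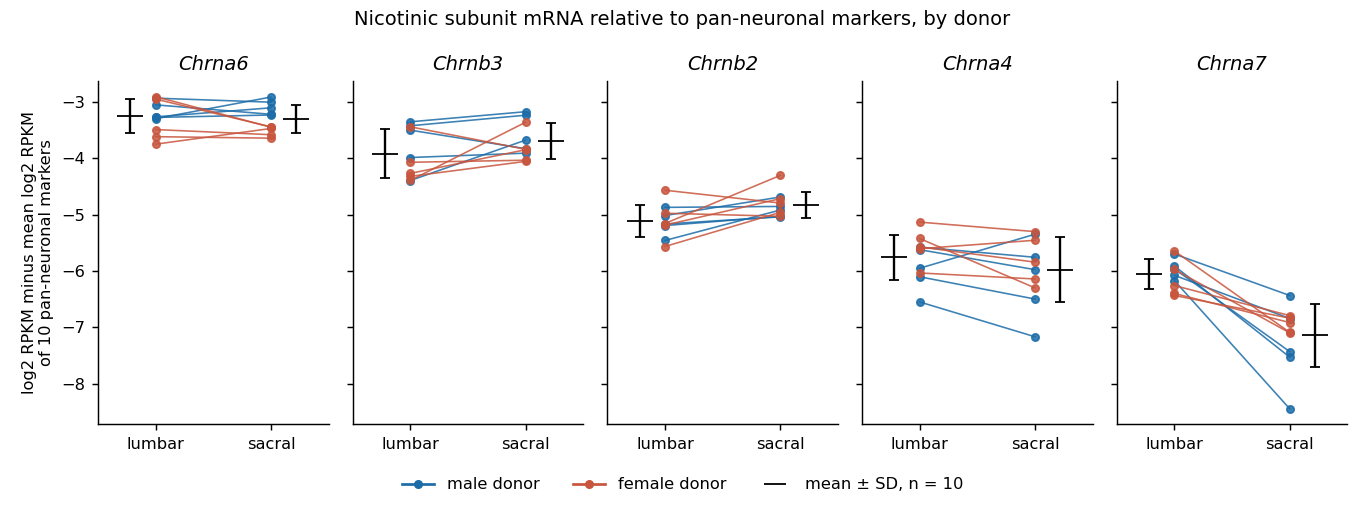
Each panel plots log2 RPKM of 1 subunit gene minus the mean log2 RPKM of 10 pan-neuronal markers, in the lumbar and the sacral library of each donor, with mean ± SD. Chrna7 falls from lumbar to sacral in 10 of 10 donors, from a mean of -6.05 to -7.14, while Chrna6 moves by 0.05. The mean of the pan-neuronal markers itself was higher in the sacral library in 10 of 10 donors.

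Markers of non-neuronal cells moved with the level as well. Of 8 endothelial and mural markers 7 were higher in lumbar and 1 in sacral DRG, with summed RPKM of 96.8 to 190 in lumbar and 99.0 to 204 in sacral libraries, and their mean log2 RPKM was higher in lumbar DRG in 10 of 10 donors by 0.85 ± 0.37. Of 5 fibroblast markers 3 were higher in lumbar DRG, with summed RPKM of at least 69.8 and a median of 95.1 in lumbar libraries and 73.9 to 176 with a median of 119 in sacral ones, and their mean was higher in lumbar DRG in 10 of 10 donors by 0.67 ± 0.46. None of these markers was at 0, and their part in the differences of the members was not tested. The mean log2 RPKM of the 10 glial markers was 6.35 to 7.48 in lumbar and 5.44 to 6.53 in sacral libraries. With this mean as a covariate, which lies close to the level itself, no member passed and the difference of Chrnb2 was 0.087 (SE 0.24), that of Chrnb3 0.042 (SE 0.31) and that of Chrna6 0.099 (SE 0.24), against -0.97, -0.91 and -0.63 without it. Chrna4 turned to 0.76 (SE 0.34) and Chrna7 was at 0.87 (SE 0.39). In that fit 48 genes of 16304 passed. The part that glial RNA has in the differences between the levels cannot be told apart from the level by these libraries.

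**Figure D5:**
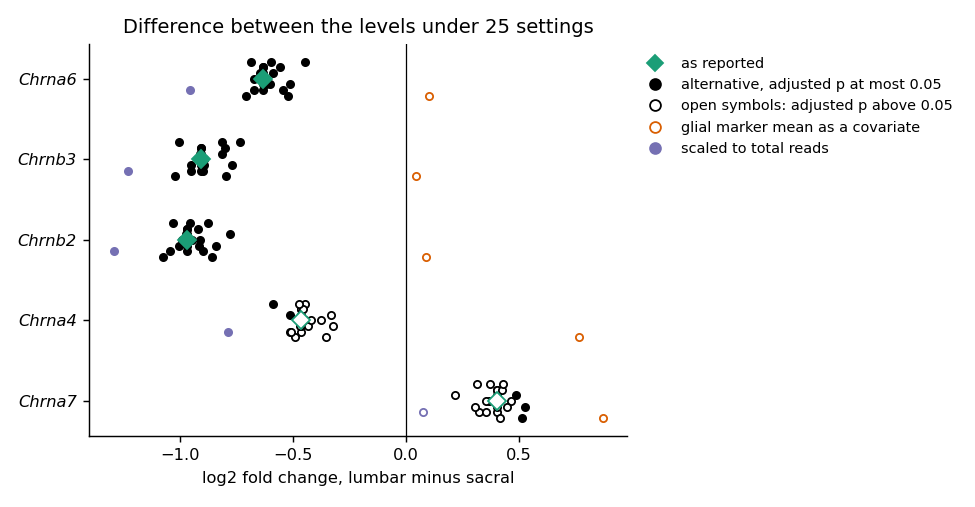
The log2 fold change between the levels, lumbar minus sacral, is plotted for each expressed member as reported (green diamonds) and under 24 alternatives, filled where the adjusted p was at most 0.05. Chrna6, Chrnb3 and Chrnb2 stay below 0 and filled except with the glial marker mean as a covariate (orange), where they lie between 0.042 and 0.099.

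Within males, Chrnb2, Chrnb3 and Chrna6 were upregulated in sacral DRG, and within females Chrnb2 and Chrnb3. Of all genes 29.6% passed within males, 20.2% upregulated in sacral and 9.43% in lumbar DRG. Within females 24.9% passed, 16.8% upregulated in sacral and 8.14% in lumbar DRG. Chrnb2 differed by -0.98 (SE 0.23) in males and -0.96 (SE 0.23) in females, and Chrnb3 by -0.91 (SE 0.25) and -0.90 (SE 0.25), so that the sexes lay within the error of each other. Chrna6 differed by -0.82 (SE 0.20; limma, adjusted p = 0.00487) in males and by -0.45 (SE 0.20; 0.0989) in females. This does not show a difference between the sexes, since the sex by level interaction of Chrna6 was 0.36 log2 (SE 0.28; limma, adjusted p = 0.9996). Within females Chrna6 passed without F2 and when libraries were scaled to total reads. Without F1 Chrnb3 did not pass within females, and without M5 it did not pass within males.

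Between the sexes no member passed in lumbar or in sacral DRG, where 0.0427% and 0.0368% of all genes passed, and none passed for the interaction, where 0% of genes did (0 of 16304 by limma, with 668 at an unadjusted p under 0.05). The largest difference was that of Chrna4 in lumbar DRG, 0.65 log2 higher in females (SE 0.32; limma, adjusted p = 0.444), with an interval of 2 SE from 0.01 to 1.29. In sacral DRG Chrna7 was 0.52 log2 higher in females (SE 0.29; adjusted p = 0.658). Over both levels Chrna6, Chrnb2 and Chrnb3 differed between the sexes by -0.29 to 0.30 log2. Chrnb4 was 1.65 log2 higher in sacral DRG of females (SE 0.28; limma, adjusted p = 0.0237).

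Chaperones and modulators of nicotinic receptors showed changes in both directions. Of 11 listed, 8 were tested and 3 passed, where 45.6% of all genes tested did. The same direction in all 10 donors was part of the rule for describing these 3, so the donor counts are no separate support. The smallest difference of Ly6e in a donor was 0.002 log2. Ric3, a chaperone that assists assembly of α7 receptors, differed by -0.36 log2 (SE 0.07), and Lynx1, a membrane-anchored protein that dampens nicotinic receptors, by -0.53 (SE 0.12), both upregulated in sacral DRG in 10 of 10 donors. Of all genes tested with a value in every library 14.6% were higher in sacral DRG in all 10 donors. Ly6e, another protein of the Ly6 family, differed by 0.95 (SE 0.20), higher in lumbar DRG in 10 of 10 donors, as were 6.55% of all genes tested with a value in every library. The adjusted p (limma) of these 3 was 0.000455, 0.00121 and 0.00083. The other 5 tested, Tmem35, Unc50, Lypd1, Lypd6 and Lypd6b, differed by -0.59 to -0.06 and did not pass.

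Of genes for acetylcholine synthesis, transport and breakdown, 7 were listed, 6 were found in the table and 4 were tested, all of which passed. Of all genes tested 45.6% passed. Ache, acetylcholinesterase, differed by -1.34 log2 (SE 0.15), Bche, butyrylcholinesterase, by -0.98 (SE 0.12) and Slc5a7, the choline transporter, by -0.95 (SE 0.20), each upregulated in sacral DRG in 10 of 10 donors. Prima1, which anchors cholinesterase in the membrane, differed by 0.83 (SE 0.13), higher in lumbar DRG in 10 of 10 donors. Of all genes tested with a value in every library 14.6% were higher in sacral and 6.55% in lumbar DRG in all 10 donors. The same direction in all 10 donors was part of the rule for naming these 4 genes, so the donor counts are no separate support. For Slc5a7 the smallest difference in a donor was -0.029 log2. Chat, the enzyme that makes acetylcholine, had no value in any library.

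Of 5 muscarinic receptors 2 were tested and both passed, as did 45.6% of all genes tested. Chrm2 differed by -1.01 log2 (SE 0.20) and was higher in sacral DRG in 10 of 10 donors, as were 14.6% of all genes tested with a value in every library. That donor count was part of the rule by which Chrm2 is named. Chrm4, which is named because it was the other of the pair and not by the rule for named genes, differed by -1.15 (SE 0.33) and was higher in 9 of 10. Of the 5 muscle-type nicotinic subunits only Chrnb1 was tested, and it differed by -0.13 (SE 0.25; limma, adjusted p = 0.683). Over the lists, the median difference was -0.26 log2 for the 8 chaperones and modulators, -0.96 for the 4 acetylcholine genes and -0.63 for the 5 members, beside -0.11 over all genes.

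Across the 20 libraries Chrna7 had the lowest correlations with the other expressed members. Pearson's r of log2 RPKM was 0.82 between Chrna6 and Chrnb2, 0.79 between Chrnb2 and Chrnb3 and 0.79 between Chrna6 and Chrnb3, and stayed at 0.79, 0.65 and 0.61 for the deviations from the 4 group means. Chrna4 had an r of 0.65 with Chrnb2, 0.65 with Chrnb3 and 0.43 with Chrna6, and of 0.55, 0.76 and 0.39 for the deviations. Chrna7 had an r of -0.13 to 0.02 with the other 4, and 0.08 to 0.35 for the deviations. The libraries share donors, sorting and scaling, so these values are a description.

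The genes most like each member in log2 RPKM, out of 17138 with a value in every library, are given with r over 20 libraries and, in brackets, r of the deviations from group means. For Chrnb2 they were Gm12715 at 0.97 (0.94), Ap1b1 at 0.97 (0.93) and Kif3c at 0.97 (0.92). For Chrnb3 they were Plxna4 at 0.96 (0.93), Zzef1 at 0.95 (0.93) and Kcnc2 at 0.95 (0.92). Chrna6 was most like Rad23b at 0.91 (0.90), Fam131b at 0.91 (0.86) and Fbxo45 at 0.90 (0.86). Among the genes most like Chrna4 were Mtmr14 at 0.87 (0.83) and Slc25a22 at 0.87 (0.81). Chrna7 stood furthest from any gene, with Meis2 at 0.79 (0.70), ENSMUSG00000093597 at 0.76 (0.76) and BC022960 at 0.75 (0.70).

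Promoter sequences are shown for Chrnb2, which was higher in sacral DRG, and for Chrna7. Relative to neuronal markers Chrna7 was higher in lumbar DRG, as was the median gene, and per RPKM it did not pass. Both sequences are the 250 bases before the transcription start, from RefSeq (GRCm38.p6), 5′ to 3′ on the gene's strand. Capitals mark the GC box GGGCGG on either strand and the E-box CANNTG, which reads alike on both strands.
Chrnb2, chr3:89764633-89764882, minus strand: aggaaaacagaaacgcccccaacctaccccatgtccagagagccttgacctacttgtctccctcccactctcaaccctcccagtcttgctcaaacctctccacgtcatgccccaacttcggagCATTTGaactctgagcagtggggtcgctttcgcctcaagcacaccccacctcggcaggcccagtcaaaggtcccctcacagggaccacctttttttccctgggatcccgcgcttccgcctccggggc
Chrna7, chr7:63212527-63212776, minus strand: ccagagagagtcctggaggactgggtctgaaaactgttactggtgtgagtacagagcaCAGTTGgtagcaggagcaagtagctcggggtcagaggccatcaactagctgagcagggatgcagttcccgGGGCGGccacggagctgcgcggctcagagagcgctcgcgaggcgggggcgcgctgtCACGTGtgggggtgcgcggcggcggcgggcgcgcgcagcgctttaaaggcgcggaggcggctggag
The window of Chrnb2 held 1 E-box and that of Chrna7 held 2 E-boxes and 1 GC box. A further GC box of Chrnb2 spans the start itself. Of 32851 promoters of this length 66.2% held CANNTG and 32.7% held GGGCGG. The TATA box, searched as TATAAA on either strand, was in 12.4% of them and in neither of these windows. GC content was 59.6% for Chrnb2 and 67.2% for Chrna7, beside a median of 52.4% over all promoters.

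Promoter entries were also found for Chrna4, Chrna9 and Chrna10. The window of Chrna4, at 74.4% GC, held 3 GC boxes and 0 E-boxes. Those of Chrna9 and Chrna10, at 50% and 48% GC, each held 2 E-boxes and 0 GC boxes. Chrna2, Chrna6 and Chrnb3 were not matched.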

How the data were processed

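Trpv1 neurons were isolated by flow cytometry from lumbar and sacral DRG of 10 donors, and 20 libraries were made from amplified total RNA. The authors aligned reads to mm9 with Subread, counted unique reads per Ensembl gene with featureCounts, and deposited a table of log2 RPKM values after normalization, in which a gene without reads is left empty. The submitters' processing notes name Subread 1.18 and 1.20.6, limma 3.26.9 and edgeR 3.12.1. Whether counting used strand is not given in the sources used here. Every library has the same median, so the deposited values are relative to it. Whole reads were worked back from the steps of the values (tolerance 0.01 reads), which gave whole numbers for 28183 of 28184 genes tested and the depth per library.

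Log2 RPKM values were tested with limma 3.58.1 in R 4.3.3 (4 groups, mean-variance trend, donor as a random block). Genes needed a mean log2 RPKM of at least -1 over at least 3 values in 1 group or more. P-values were adjusted by Benjamini-Hochberg over all genes tested and called at 0.05. Donor pairs come from the labels. The deviations of the 2 libraries of a donor from their group means correlated at 0.18 on average (0.04 to 0.30), against -0.04 for different donors. Deviations cancel within a group, so the second value follows from the first and is no separate comparison. Ratios were tested by exact sign-flip permutation over 10 donors, two-sided. Libraries of a group come from separately labelled donors. The last number in the library labels runs in unbroken blocks by group. Its meaning is not stated, and it was not used as a batch. An effect of that order could not be told apart from level and sex. The fits were tested on simulated data. Matching to symbols used GENCODE vM1 (37205 of 37620 genes).

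Members and gene lists were chosen with earlier results of these data known. The genes named are every member, the clustered subunits, genes of the cholinergic lists that passed between the levels in the same direction in all 10 donors, and the 3 genes with the highest r for each member with at least 50 reads in every library. A gene that this last rule names is not reported here. Alternatives covered filters, pseudocounts, scaling, the donor block, a glial covariate and each donor left out.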

Additional observations from a re-analysis of the deposited data

How the results depend on the processing

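The calls of Chrnb2, Chrnb3 and Chrna6 between the levels held under 24 of 25 alternatives each. With the glial marker mean as a covariate 0 members passed over both sexes, in males and in females, and the differences turned to 0.76 for Chrna4, 0.099 for Chrna6, 0.087 for Chrnb2 and 0.042 for Chrnb3, lumbar minus sacral. The number called ranged from 3 to 5 with each donor left out (5 without M4), from 2 to 3 in males and from 1 to 3 in females, and was 1 in females at an adjusted p of 0.01. Chrna4 passed when scaled to total reads (-0.79), under array weights (-0.59) and with donor as a fixed replicate block (-0.47). Without the block it kept its difference of -0.47 and did not pass, as in the reported fit. Within males the fixed block also called Chrna4 (4 members), and neither block setting changed another call of a member between the levels. Scaling to total reads put the median of all genes at -0.43 and TMM factors at 0.00, and sacral calls made up 88.0% and 51.1% of all calls, against 66.5% as reported.

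Ratios to the pan-neuronal markers passed for 1 member as reported, 3 members against the Trpv1 neuron markers and 1 to 2 with each donor left out (2 without M3 and 2 without F2). The ratio of Chrna6 turned to -0.10 against the Trpv1 neuron markers and ranged from -0.0017 (without F1) to 0.10 with each donor left out, and that of Chrnb3 to 0.052 against Trpv1 alone. Pair ratios passed for 2 as reported, 1 when the libraries were not paired (no replicate block) and 1 to 3 with each donor left out (3 without M2, where Chrna6 to Chrnb3 passed at 0.34). The number of members called between the sexes and for the interaction was 0 under every alternative run. Chrna2, Chrna9 and Chrna10 were below the filter on low values in the reported fit and had too few values for the fit without it, so their differences were not tested. The cause of these changes was not tested.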
